A study of Caenorhabditis elegans with 26 samples.

Results

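The genes described here are 9 genes of Caenorhabditis elegans that act in the response to low oxygen and in sulphur amino acid metabolism: hif-1, egl-9, vhl-1, rhy-1, cysl-1, cysl-2, cbs-1, cbs-2 and fmo-2. They were taken by their gene symbols in the array annotation, which assigns 10 probe sets to them, of 17138 genes and 22548 probe sets in all. cysl-1 has 2 probe sets and each of the other genes has 1. The probe sets of egl-9, hif-1 and cysl-2 and the brighter one of cysl-1 are of the kind that can match several transcripts, so their values are less certain. The choice of these genes was made with the values of fmo-2 and vhl-1 in sdc-2 mutant embryos already known, so values of the sdc-2 comparison are given below as a description, without p-values. A member here is one of the 10 probe sets.

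Embryos released from gravid adults by bleaching were profiled on 26 Affymetrix arrays, and each mutant has wild-type XX embryos from the same plate type as controls. XX embryos mutant for dpy-27 by the y57 allele (3 arrays) are set against wild-type XX embryos from NG plates (3 arrays). XX embryos that carry sdc-2(y93) and came from mothers fed bacteria with an sdc-2 RNAi plasmid (3 arrays) are set against wild-type N2 embryos from RNAi plates, whose mothers ate bacteria with a plasmid that has no insert (3 arrays). Embryos with 1 X chromosome (XO, 8 arrays) come from the strain TY2222, which carries her-1(hv1y101) and also xol-1(y9), the sdc-2 allele y74 and unc-9(e101). Their controls are wild-type XX embryos from egg plates (6 arrays), which carry none of these alleles, so the XO comparison joins a missing X chromosome with 4 mutations. DPY-27 and SDC-2 belong to the dosage compensation complex, which lowers expression from both X chromosomes of XX worms. Each sample title gives a date, and the 5 dates were numbered as date codes from 1, the earliest, to 5. The dpy-27 arrays have code 1 and their controls code 2, and the sdc-2 arrays have code 5 and their controls code 3, so genotype and date cannot be told apart in these comparisons. XO arrays have code 2 (3 arrays) or 5 (5 arrays) and their controls code 2 (3 arrays) or 4 (3 arrays), so code 2 holds both groups.

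HIF-1 is the transcription factor that drives the worm's response to low oxygen. In air the prolyl hydroxylase EGL-9 modifies HIF-1, which lets VHL-1, the recognition subunit of a ubiquitin ligase, bind it for destruction. RHY-1, a multi-pass membrane protein, keeps HIF-1 activity low by restraining CYSL-1, a cysteine synthase relative that binds EGL-9 and blocks it when hydrogen sulphide builds up. Genes that HIF-1 raises include cysl-2, whose product detoxifies cyanide, and fmo-2, a flavin-containing monooxygenase gene tied to lifespan. CBS-1 and CBS-2 are cystathionine beta-synthases, enzymes that join homocysteine and serine on the route from methionine to cysteine and can release hydrogen sulphide. EGL-9 also restrains the activity of HIF-1 by a route that does not need VHL-1. Protein stability and protein activity are not measured by expression arrays.

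The deposited values are log2 expression per probe set, from 3.07 to 14.48, and a difference of 1 in log2 is a doubling. Over probe sets, arrays that share both group and date code correlated at 0.984 to 0.998. Precision is limited by how many arrays each group has. Some of the genotypes were visible in the data. The 2 sdc-2 probe sets read 3.85 to 4.07 and 4.18 to 4.55 in XO embryos, against 8.07 to 9.26 and 9.08 to 9.85 in their controls. One sdc-2 probe set read 7.82 to 8.14 in sdc-2 XX embryos, against 9.25 to 9.42 in controls. For the other the groups lay closer, at 9.37 to 9.90 against 9.93 to 10.09. The brighter dpy-27 probe set read 10.37 to 10.55 in dpy-27 embryos and 10.41 to 10.59 in controls, and the dimmer one read 5.96 to 6.27 in dpy-27 embryos and 5.13 to 5.54 in controls, so neither marked that mutant by a lower level. Of 10 late-embryo markers, among them muscle myosin and collagen genes, 5 were called lower and 2 higher in dpy-27 embryos. The 2 higher, tnt-3 and elt-2, are X-linked, as is dpy-7 among the lower. In XO embryos 7 of the 10 late-embryo markers were called lower and none higher. The log2 of their summed level was 13.87 to 14.06 in dpy-27 embryos against 14.86 to 15.17 in controls, 15.15 to 15.24 in sdc-2 embryos against 15.47 to 15.53, and 14.42 to 15.15 in XO embryos against 14.97 to 15.54. Of 10 early-embryo markers 2 were called lower in dpy-27 embryos and none in XO embryos, and they summed to 14.39 to 14.66 in dpy-27 embryos against 14.44 to 14.83, 14.21 to 14.51 in sdc-2 embryos against 13.52 to 13.82, and 13.92 to 14.44 in XO embryos against 13.66 to 14.35. In whole embryos a smaller share of cells of a type and less RNA per cell cannot be told apart, and the part of embryo stage in the results below was not tested.

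In dpy-27 embryos 2 of the 10 members passed the test (limma, adjusted p under 0.05 over all 22548 probe sets), both lower than in controls. Of all probe sets 31.7% passed it, 16.1% higher and 15.7% lower. The members' count depended on the fit, at 5 with the NG-plate arrays alone and 4 with replicate letter as a block. Nothing is therefore read from how their share compares with the background. In XO embryos 8 of 10 passed, 2 higher and 6 lower, against a background of 31.1% of all probe sets, made up of 15.4% higher and 15.7% lower. The lower ones include the X-linked vhl-1, cbs-1 and both probe sets of cysl-1. Of X-linked probe sets 37.6% were called lower in XO embryos, against 12.3% of autosomal ones, so nothing particular to these genes is read from the count. Bright probe sets passed more often than dim ones. Of the 11274 probe sets above the median level, 47.7% passed in the dpy-27 comparison and 45.3% in the XO comparison. Within date code 2 alone, XO embryos differed from controls in 7 of 10 members, 1 higher and 6 lower, against a background of 39.5% over all probe sets, with 20.3% higher and 19.2% lower, and of 60.9% over the brighter ones. The arrays of 8 members did not overlap there, against 53.4% of all probe sets. Within that code 5 of 10 early-embryo markers were called higher and 6 of 10 late-embryo markers lower in XO embryos, and 6 of 21 sperm markers higher, and their part in the code 2 results was not tested. The median change over members was -0.29 in dpy-27 embryos, where that over all probe sets was 0.02, and -0.45 in XO embryos, where that over all was -0.01.

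**Figure D1:**
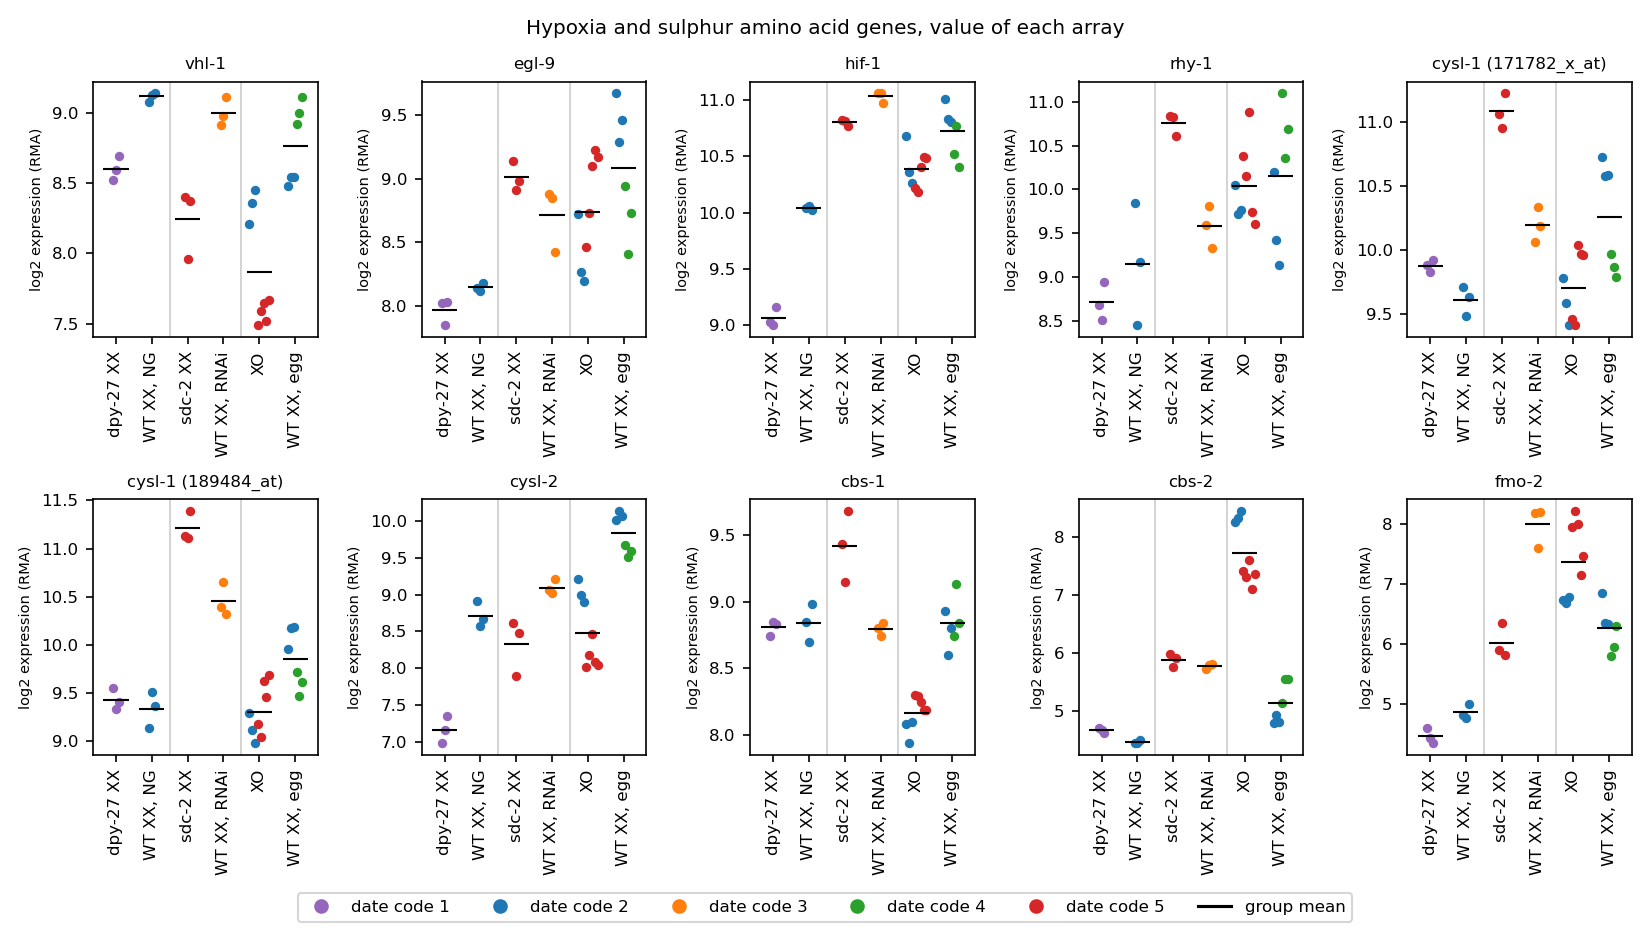
Log2 expression (RMA, vertical axis) of the 10 member probe sets on each of the 26 arrays, with arrays as points and group means as bars, each mutant left of its plate-matched wild type. cbs-2 in XO embryos lies between 7.11 and 8.45, above the 4.80 to 5.55 of egg-plate wild type, and hif-1 in dpy-27 embryos lies between 9.0 and 9.16, below the 10.02 to 10.06 of NG-plate wild type.

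The hif-1 message, which encodes the transcription factor itself, was lower in both mutants that were tested. It read 9.03, 9.0 and 9.16 in dpy-27 embryos, against 10.04, 10.06 and 10.02 in NG-plate controls. These groups were far apart, and hif-1 fell 1.97-fold in dpy-27 embryos (log2 change -0.98, SE 0.13, adjusted p = 3.54e-06). In XO embryos hif-1 read 10.18 to 10.68 (median 10.38), against 10.40 to 11.01 (median 10.78) in egg-plate controls, so the groups overlapped. The mean difference was a fall of 1.26-fold (log2 change -0.34, SE 0.08, adjusted p = 0.00321). At date code 2 the arrays of XO embryos read 10.68, 10.36 and 10.26, all below the controls' 11.01, 10.83 and 10.80, and the fall was 1.36-fold (adjusted p = 0.00161). Against controls of code 4 the difference was smaller and not called, at -0.13 (adjusted p = 0.428) for XO code 2 and -0.21 (adjusted p = 0.0785) for XO code 5. The dpy-27 difference exceeded the XO difference by 0.64 in log2 (-0.64, SE 0.15, adjusted p = 0.00291). In sdc-2 embryos hif-1 read 10.82, 10.81 and 10.77, just under the 11.06, 11.06 and 10.97 of their controls.

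egl-9, the gene of the oxygen-sensing hydroxylase, showed no call in dpy-27 embryos, where it read 8.02, 7.85 and 8.03 against 8.14, 8.12 and 8.18 in controls. The difference was -0.18, with a 95% interval of -0.74 to 0.38. In XO embryos it read 8.20 to 9.22 (median 8.73), against 8.41 to 9.67 (median 9.12) in controls, a difference of -0.35 that missed the threshold (adjusted p = 0.143). The value differed between the dates. At date code 2, XO embryos read 8.72, 8.27 and 8.20 against 9.67, 9.29 and 9.46 in controls, and egl-9 fell 2.11-fold (adjusted p = 2.49e-05). XO arrays of code 5 against control arrays of code 4 gave 0.24 in log2 (adjusted p = 0.217), with overlapping arrays. Controls themselves were 0.78 lower at code 4 than at code 2 (log2 change -0.78, adjusted p = 0.00103).

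vhl-1, the X-linked gene of the ubiquitin ligase subunit, was below controls in all 3 mutants. It read 8.52, 8.59 and 8.69 in dpy-27 embryos, against 9.08, 9.13 and 9.14 in controls. The arrays did not overlap, but the log2 change of -0.51 (SE 0.22) missed the threshold in the fit with 1 mean per group (adjusted p = 0.0844). It passed in the fit with 1 mean per group and date code (adjusted p = 0.000103), which leaves the date differences of the egg-plate arrays out of the spread. The dpy-27 arrays and their controls differ in date, and that p-value does not allow for differences between dates. Between the 2 dates of egg-plate controls vhl-1 differed by 0.49 with no change of genotype. In XO embryos vhl-1 read 7.49 to 8.45 (median 7.66), against 8.48 to 9.11 (median 8.73) in controls, without overlap, and fell 1.86-fold (log2 change -0.90, SE 0.15, adjusted p = 6.03e-05). Its size depended on the dates compared, from -0.18 to -1.43 over the 4 pairings of an XO date code with a control date code. XO arrays of code 2 read 8.21, 8.36 and 8.45 beside controls at 8.48, 8.54 and 8.54, a difference of -0.18 that missed the threshold (adjusted p = 0.154), whereas XO arrays of code 5 read 7.49 to 7.67. Within XO embryos vhl-1 was 0.76 lower at code 5 than at code 2 (log2 change -0.76, adjusted p = 2.76e-07). In sdc-2 embryos, one of the values that chose these genes, vhl-1 read 8.40, 7.96 and 8.37 against 8.91, 8.98 and 9.11 in controls, a log2 difference of -0.76.

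In dpy-27 embryos X-linked probe sets as a whole moved the other way from vhl-1, whose change was not called with 1 mean per group. The median change of X-linked probe sets was 0.22 there, with 37.4% called higher and 5.46% called lower. In sdc-2 embryos their median was 0.24. The vhl-1 value there was one of those that chose the genes, so nothing is read from setting them side by side. In XO embryos the median was -0.16, with 2.27% called higher and 37.6% called lower. Of the 6 genes with probe sets that flank vhl-1 on X, 3 on either side, F08G12.3 (0.53), F08G12.5 (0.79) and nlp-57 (0.84) rose in dpy-27 embryos with adjusted p of 0.00412, 4.61e-05 and 0.00369. The other 3 neighbours changed by 0.16 to 0.27 and were not called. In sdc-2 embryos the changes of the 6 neighbours ran from -0.15 to 0.57, on both sides of 0. In XO embryos 4 of these 6 neighbours fell, by 0.34 to 1.17, and within date code 2 5 of them fell, by 0.32 to 0.49. No test set vhl-1 against its neighbours.

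rhy-1, whose product restrains CYSL-1, was called in neither tested mutant, and its arrays were widely spread within groups. In dpy-27 embryos it read 8.68, 8.51 and 8.94, inside the range of the controls at 9.84, 8.45 and 9.17 (log2 change -0.44, 95% interval -1.25 to 0.38). In XO embryos it read 9.60 to 10.88 (median 9.91), against 9.14 to 11.10 (median 10.28) in controls, and the change of -0.12 had an SE of 0.26. The sign of that change turned to 0.26 when only date code 2 was used (adjusted p = 0.567). Controls rose 2.19-fold between collections, with 11.10, 10.36 and 10.69 at code 4 against 10.20, 9.42 and 9.14 at code 2 (adjusted p = 0.00483). In sdc-2 embryos rhy-1 read 10.84, 10.83 and 10.61, above 9.59, 9.81 and 9.33 in controls, a 2.27-fold difference.

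cysl-1, the X-linked gene of the EGL-9 inhibitor, behaved alike on its 2 probe sets, which correlated over the 26 arrays at r = 0.92 after subtraction of each plate type's mean. The brighter one read 9.88, 9.83 and 9.92 in dpy-27 embryos, against 9.71, 9.48 and 9.63 in controls. These arrays did not overlap, but neither probe set was called, with log2 changes of 0.27 (SE 0.21) and 0.09 (SE 0.19). Around cysl-1, 5 of its 6 X-linked neighbours rose in dpy-27 embryos, among them C17G1.5 (1.48, adjusted p = 1.41e-08) and ZC506.1 (1.65, adjusted p = 5.06e-06), while nas-37 changed by -0.19 and was not called. In XO embryos both cysl-1 probe sets fell 1.47-fold (log2 change -0.55 each, adjusted p = 0.00409 for the brighter and 0.00139 for the other), though arrays of the groups overlapped. At date code 2 they did not overlap. The brighter probe set read 9.78, 9.58 and 9.41 in XO embryos against 10.73, 10.58 and 10.59 in controls there, a fall of 2.06-fold (adjusted p = 1.8e-06), and the other fell 1.96-fold. Between XO code 5 and control code 4 the difference was -0.11 (adjusted p = 0.501) and -0.20 (adjusted p = 0.204). The sdc-2 embryos had the highest readings, 11.07, 10.96 and 11.23 on the brighter probe set against 10.06, 10.34 and 10.19 in controls, and 11.13, 11.11 and 11.39 on the other against 10.39, 10.65 and 10.32.

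cysl-2, the cyanide-detoxifying gene that HIF-1 raises, fell in both tested mutants. It read 6.98, 7.16 and 7.35 in dpy-27 embryos, against 8.91, 8.57 and 8.67 in controls. This was the largest fall among the members in dpy-27 embryos, 2.94-fold (log2 change -1.56, SE 0.27, adjusted p = 9.99e-05). In XO embryos cysl-2 read 8.01 to 9.21 (median 8.32), against 9.52 to 10.14 (median 9.85) in controls, without overlap, a fall of 2.56-fold (log2 change -1.35, SE 0.18, adjusted p = 3.71e-06). It passed in each of the 4 pairings of an XO date code with a control date code, from -0.57 for XO code 2 against control code 4 to -1.92 for XO code 5 against control code 2. The dpy-27 and XO differences were not told apart by the test, their gap being -0.20 with a 95% interval of -0.87 to 0.46. In sdc-2 embryos it read 8.61, 7.89 and 8.48, below 9.06, 9.02 and 9.21 in controls, a 1.71-fold difference.

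cbs-1, the X-linked cystathionine beta-synthase gene, had nearly equal readings in dpy-27 embryos (8.74, 8.85 and 8.83) and their controls (8.85, 8.70 and 8.98). The log2 change there was -0.03, with a 95% interval of -0.29 to 0.22. In XO embryos it fell 1.59-fold, reading 7.94 to 8.30 (median 8.19) against 8.60 to 9.13 (median 8.82) in controls, with no overlap (log2 change -0.67, SE 0.08, adjusted p = 1.64e-06). The fall passed in all 4 date pairings, at -0.53 to -0.86, and was 1.66-fold within date code 2 (adjusted p = 1.42e-05). The dpy-27 and XO differences of cbs-1 differed by 0.64 (SE 0.15, adjusted p = 0.00299). In sdc-2 embryos cbs-1 read 9.43, 9.15 and 9.68, above 8.80, 8.74 and 8.84 in controls, a 1.54-fold difference.

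cbs-2, the autosomal paralogue of cbs-1 on chromosome II, was the member that rose most, and it did so in XO embryos. At date code 2 it read 8.26, 8.33 and 8.45 in XO embryos, against 4.80, 4.94 and 4.82 in controls. XO arrays of code 5 read 7.42, 7.31, 7.61, 7.11 and 7.36, against 5.14, 5.55 and 5.55 in control arrays of code 4. All 8 XO arrays thus stood above all 6 controls, where the message lay close to the lower quartile of the egg-plate arrays (4.86 to 4.95). Over all dates cbs-2 rose 6.05-fold (log2 change 2.60, SE 0.18, adjusted p = 5.21e-10), and within date code 2 it rose 11.3-fold (log2 change 3.49, SE 0.11, adjusted p = 3.25e-17). The values used here carry no detection calls, so it is not known whether the control level lay above background, and both folds are those of the measured values. The lowest of the 4 date pairings, XO code 5 against control code 4, gave 1.95 and still passed. Sperm markers, which bleached adults could bring along, summed to a log2 of 10.28 to 10.39 in XO code 2 arrays and 10.03 to 10.17 in controls of that code, and to 9.87 to 9.94 in XO code 5 arrays and 10.14 to 10.48 in controls of code 4. The part of these markers in the cbs-2 difference was not tested.

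The 6 genes that flank cbs-2 changed far less at date code 2. Y59C2A.3 next to it rose by 0.78 (adjusted p = 0.00386) and F54A3.5 on the other side by 0.54 (adjusted p = 0.00597), Y59C2A.1 fell by 0.52, and the other 3 changed by -0.01 to 0.36 without a call. In dpy-27 embryos cbs-2 was not called. It read 4.71, 4.67 and 4.62 in dpy-27 embryos against 4.45, 4.45 and 4.51 in controls (log2 change 0.20, adjusted p = 0.637), and 5.99, 5.76 and 5.91 in sdc-2 embryos against 5.73, 5.80 and 5.82 in controls. These groups lay near the lower quartile of their plate type's arrays, 4.42 to 4.48 on NG plates and 5.64 to 5.72 on RNAi plates. A fall of cbs-2 there may not have been measurable. The dpy-27 difference was 2.40 below the XO difference (-2.40, 95% interval -3.08 to -1.71, adjusted p = 1.44e-05).

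**Figure D2:**
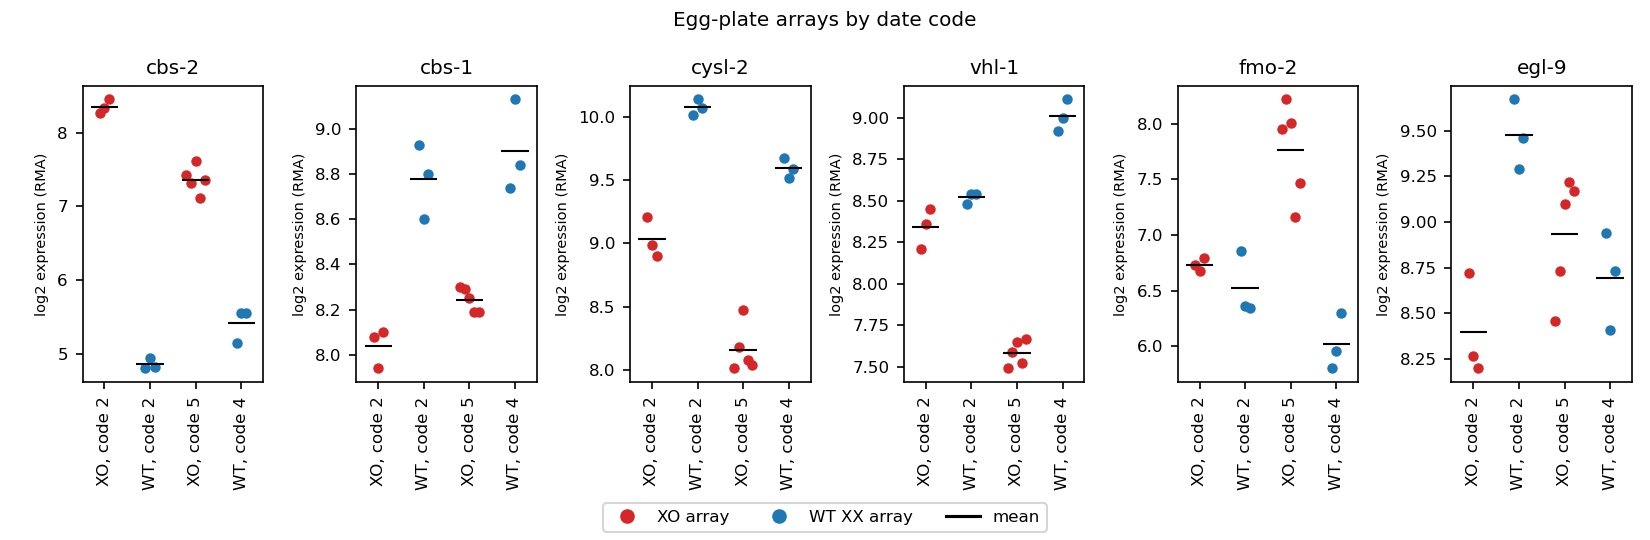
Log2 expression (RMA, vertical axis) of 6 members on the 14 egg-plate arrays, split by genotype and date code, with arrays as points and means as bars; each panel has its own axis range. cbs-2 is higher in XO embryos at both date settings, whereas egl-9 is lower in XO embryos at code 2 and overlaps its controls between codes 5 and 4.

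fmo-2, the flavin monooxygenase gene that HIF-1 and other stress regulators raise, showed the largest difference among the members in the sdc-2 comparison, and that value was one of those that chose the genes. It read 5.90, 6.35 and 5.82 in sdc-2 embryos, against 8.19, 7.60 and 8.20 in RNAi-plate controls, a 3.92-fold lower level (log2 difference -1.97, SE 0.34). In dpy-27 embryos it read 4.60, 4.43 and 4.35, below 4.82, 4.76 and 5.00 in controls, a change of -0.40 that missed the threshold (adjusted p = 0.409). Both groups lay near the lower quartile of the NG-plate arrays (4.42 to 4.48). In XO embryos fmo-2 read 6.68 to 8.22 (median 7.32), against 5.80 to 6.86 (median 6.32) in controls, and rose 2.15-fold (log2 change 1.11, SE 0.22, adjusted p = 0.000522). With date code as a random block the value was 0.45 and the call was lost (adjusted p = 0.133). Its size depended on the dates compared. XO arrays of code 5 read 7.95, 8.22, 8.01, 7.16 and 7.47, and stood 1.74 in log2 above controls of code 4 at 5.80, 5.96 and 6.30. At date code 2, XO embryos read 6.73, 6.68 and 6.79 beside controls at 6.86, 6.36 and 6.34, with no call (log2 change 0.21, adjusted p = 0.489). Within XO embryos alone fmo-2 was 2.04-fold higher at code 5 than at code 2 (adjusted p = 0.000127). The dpy-27 difference lay below the pooled XO difference (-1.5, SE 0.40, adjusted p = 0.00849).

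Across the 10 members, the sdc-2 comparison had 7 with an adjusted p under 0.05, 4 higher and 3 lower, against 20.1% of all probe sets (8.34% higher, 11.7% lower) and 35.3% of the brighter ones, and 9 whose arrays did not overlap, against 40.4%. Nothing is read from these counts, since values of that comparison chose the genes. Higher in sdc-2 embryos by the measured means were rhy-1 (1.18), both cysl-1 probe sets (0.89 and 0.76), cbs-1 (0.63), egl-9 (0.29) and cbs-2 (0.11), and lower were fmo-2, cysl-2 (-0.77), vhl-1 and hif-1 (-0.23). Arrays overlapped in cbs-2 alone. In the dpy-27 comparison 7 members did not overlap, against 52.5% of all probe sets, and in the XO comparison 4 did not, against 9.03%.

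**Figure D3:**
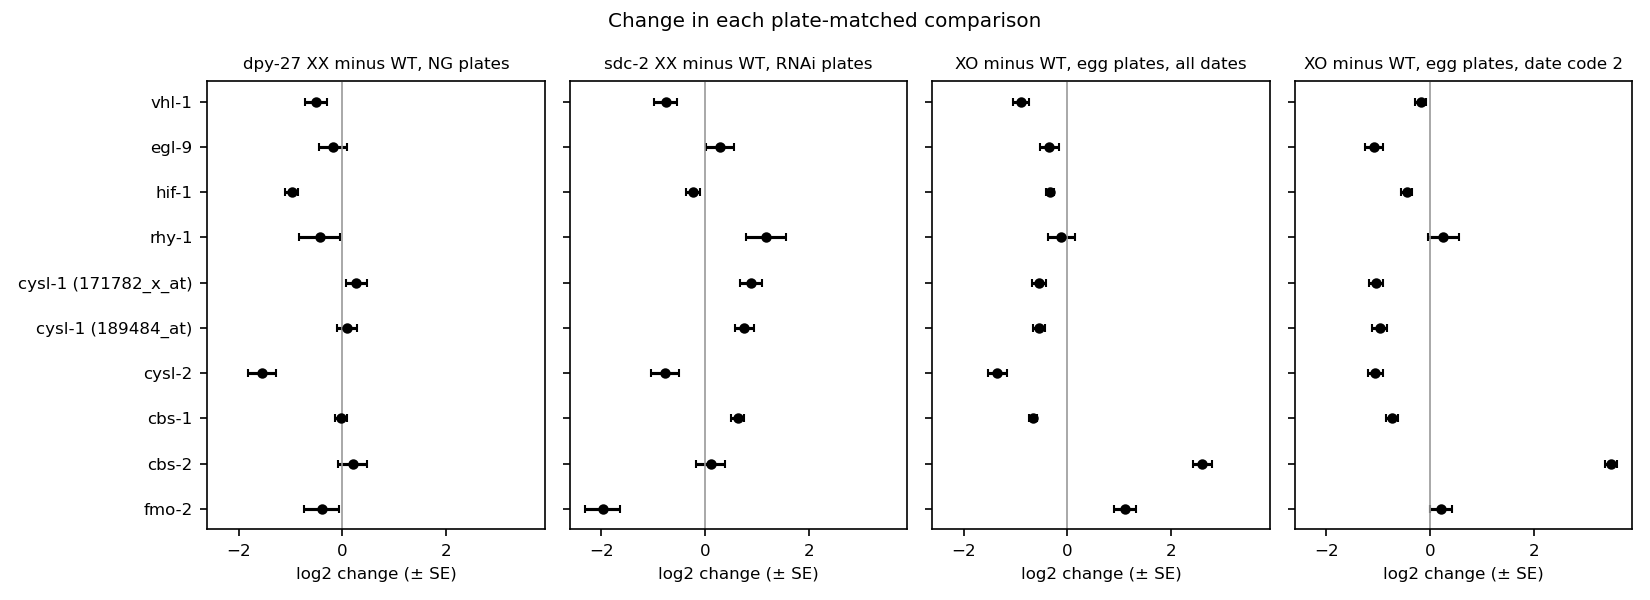
Log2 change of each member probe set, mutant minus plate-matched wild type, with bars of ± SE from the limma fits, for the dpy-27, sdc-2 and XO comparisons and for XO within date code 2. hif-1 (-0.98) and cysl-2 (-1.56) are the falls called in dpy-27 embryos, and cbs-2 (2.60 over all dates, 3.49 within code 2) is the largest rise.

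The members also differed between collections of the same genotype and plate type. XO arrays of code 5 differed from XO arrays of code 2 in 5 of 10 members, 2 higher and 3 lower, where the background was 39.2% over all probe sets (18.2% higher, 21.1% lower) and 54.7% over the brighter ones. The arrays of 5 members did not overlap, against 43% of all probe sets. Beside vhl-1 and fmo-2, cbs-2 (-0.98, adjusted p = 3.1e-08) and cysl-2 (-0.88, adjusted p = 8.88e-06) were lower and egl-9 (0.54, adjusted p = 0.00807) higher at code 5. Wild-type XX arrays of code 4 differed from those of code 2 in 8 of 10 members, 3 higher and 5 lower, where the background was 37.2% over all probe sets (19.4% higher, 17.7% lower) and 53.8% over the brighter ones. The arrays of 9 members did not overlap, against 48.2% of all probe sets. rhy-1 (1.13), cbs-2 (0.56) and vhl-1 (0.49) were higher at code 4, and egl-9, both cysl-1 probe sets, cysl-2 and hif-1 lower by 0.32 to 0.78. cbs-1 was called in neither date comparison, at 0.20 in XO embryos and 0.13 in controls. Marker genes differed between the same collections. In wild-type code 4 arrays, relative to code 2 arrays, 10 of 10 early-embryo markers and 8 of 21 sperm markers were higher and 7 of 10 late-embryo markers lower. In XO code 5 arrays, relative to code 2 arrays, 15 of 21 sperm markers and 3 of 5 yolk markers were lower, 3 of 10 early-embryo markers higher, and of 10 late-embryo markers 6 lower and 2 higher. Their part in the members' date differences, cbs-2 included, was not tested.

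The difference between the dpy-27 and XO effects was itself tested for each member, and 6 of 10 passed, 3 higher and 3 lower, against 22.6% of all probe sets (10.9% higher, 11.7% lower) and 34.2% of the brighter ones. Relative to XO embryos, dpy-27 embryos had higher changes in the X-linked genes cysl-1 (0.82 and 0.65 on its 2 probe sets, adjusted p = 0.0221 and 0.04) and cbs-1, and lower changes in the autosomal genes hif-1, cbs-2 and fmo-2. When 1 array was left out, the call was lost in 12 of 20 fits for the dimmer cysl-1 probe set and in 2 of 20 for the brighter one. Over all X-linked probe sets the median of this difference was 0.51, with 45.4% called higher. vhl-1, the third X-linked gene, had 0.38 (95% interval -0.17 to 0.94) and was not called. Its 2 sides come from different plate types, whose value distributions differ, and this limits it.

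Levels of all 6 groups can be listed together only after joint quantile normalisation of all arrays, and are given as a description. cbs-2 averaged 7.73 ± 0.51 in XO embryos (SD, n = 8) and 5.00 to 5.26 in the other 5 groups. fmo-2 averaged highest in RNAi-plate wild type (7.77 ± 0.36, n = 3) and XO embryos (7.39 ± 0.64, n = 8), a gap within their spread, and lowest in dpy-27 embryos (4.97 ± 0.10, n = 3). hif-1 ran from 10.87 in RNAi-plate wild type, through egg-plate wild type (10.78), sdc-2 (10.60), XO (10.39) and NG-plate wild type (10.19), to 9.24 in dpy-27 embryos, and neighbours among the first 3 of these groups did not differ beyond their spread. cysl-2 was highest in egg-plate wild type (9.87) and lowest in dpy-27 embryos (7.41), vhl-1 highest in NG-plate wild type (9.26) and lowest in XO embryos (7.86), and cbs-1 highest in sdc-2 embryos (9.31) and lowest in XO embryos (8.17). cysl-1 was highest in sdc-2 embryos (10.88 on its brighter probe set). The 6 group means of egl-9, from 9.09 in egg-plate wild type to 8.18 in dpy-27 embryos, had no neighbouring pair that differed beyond its spread.

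The other genes of these pathways moved in both directions. Of 48 listed genes 43 had a probe set. In dpy-27 embryos 8 rose, 8 fell and 27 were not called, with a median change of 0.02, equal to that of all probe sets. In XO embryos 7 rose, 10 fell and 26 were not called, with a median of -0.05, against -0.01 for all. The calls made up 37.2% of the listed genes in dpy-27 embryos and 39.5% in XO embryos, near the backgrounds of 31.7% and 31.1% of all probe sets and below the 47.7% and 45.3% of the brighter ones. Among 9 other genes known to depend on HIF-1, 1 rose and none fell in dpy-27 embryos, and 3 fell in XO embryos. Within date code 2, 4 of the 9 fell in XO embryos and none rose, where 19.2% of all probe sets were called lower. This list was not split by the direction in which HIF-1 acts. In the dpy-27 comparison smf-3 (means 4.30 and 4.30) and oac-54 (4.25 and 4.15) lay below the NG-plate lower quartile of 4.42 to 4.48. A fall of these genes may not have been measurable. kynu-1, the X-linked kynureninase gene, was the one that rose in dpy-27 embryos (1.10, SE 0.15, adjusted p = 9.65e-06). It was among those that fell in XO embryos (-0.44, adjusted p = 0.00195). nhr-57, a nuclear receptor gene often used as a readout of HIF-1, changed by 0.02 in dpy-27 embryos and by -0.23 in XO embryos without a call, and fell 1.76-fold in XO embryos within date code 2 (log2 change -0.81, adjusted p = 0.00111). F22B5.4 was the furthest lowered in XO embryos (-1.36, SE 0.24, adjusted p = 0.000129).

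**Figure D4:**
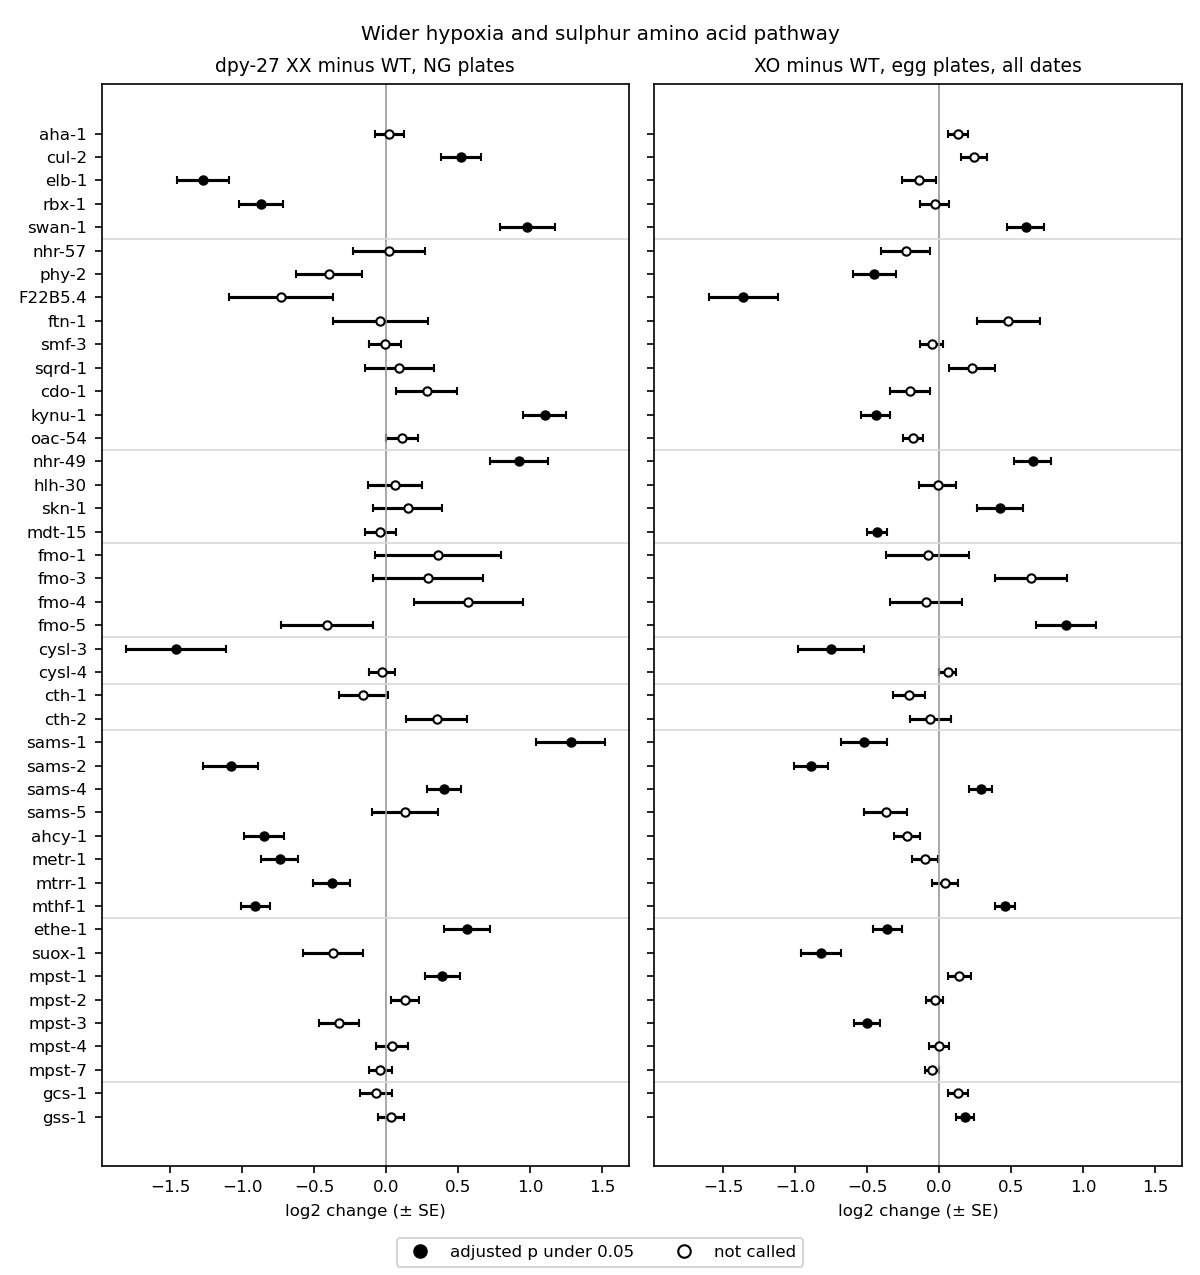
Log2 change of the 43 measured genes of the hypoxia and sulphur amino acid pathways other than the members, grouped by list, in dpy-27 embryos minus NG-plate wild type and in XO embryos minus egg-plate wild type, with called genes marked apart from uncalled ones. Called genes lie on both sides of 0 in both comparisons, 8 higher and 8 lower in dpy-27 embryos and 7 higher and 10 lower in XO embryos.

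Genes of the methionine cycle, which feeds homocysteine to the CBS enzymes, gave 2 rises and 5 falls of 8 measured in dpy-27 embryos and 2 rises and 2 falls in XO embryos. These few genes are to be read against the same backgrounds of 31.7% and 31.1%. sams-1, the X-linked gene of an S-adenosylmethionine synthetase, rose in dpy-27 embryos (1.28, SE 0.24, adjusted p = 0.000227) and fell in XO embryos (-0.52, SE 0.16, adjusted p = 0.0149). Its relative sams-2 fell in both, by 1.08 in dpy-27 embryos and by 0.89 in XO embryos. mthf-1, the methylenetetrahydrofolate reductase gene, fell by 0.91 in dpy-27 embryos (SE 0.10, adjusted p = 5.09e-07) and rose by 0.46 in XO embryos (SE 0.07, adjusted p = 1.21e-05). The 5 measured genes of HIF-1's partner, regulator and degradation machinery gave 2 rises and 2 falls in dpy-27 embryos. Of these elb-1, the elongin B gene of the VHL ligase, fell (-1.27, adjusted p = 1.04e-05). The swan-1 gene, whose product holds HIF-1 activity down, rose (0.98, adjusted p = 0.000339). The partner gene aha-1 was not called (0.02, adjusted p = 0.928). cysl-3, of the cysteine synthase family, fell by 1.46 in dpy-27 embryos (adjusted p = 0.00216) and by 0.75 in XO embryos (adjusted p = 0.0142), although at date code 2 XO embryos read 0.21 above controls. nhr-49, a nuclear receptor known to raise fmo-2, rose in dpy-27 embryos (0.92, adjusted p = 0.00105) and in XO embryos (0.65, adjusted p = 0.00062). suox-1, the X-linked sulphite oxidase gene, fell in XO embryos (-0.82, SE 0.14, adjusted p = 7.26e-05), and fmo-5, another flavin monooxygenase gene, rose there (0.88, SE 0.21, adjusted p = 0.00247). At date code 2 alone the XO changes of nhr-49 (0.23, adjusted p = 0.0735) and suox-1 (-0.32, adjusted p = 0.104) were not called, while F22B5.4 (-2.01) and sams-2 (-0.59) were, as were sams-1 (-1.24) and fmo-5 (1.82) at larger sizes. Between XO code 5 and control code 4, sams-1 and fmo-5 lost their calls. With date code as a random block cysl-3, sams-2, swan-1 and nhr-49 lost their calls in dpy-27 embryos.

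For each member the genes with the most alike pattern over the 26 arrays, after subtraction of each plate type's mean, are given as a description by Pearson correlation. The arrays share plates, dates and genotypes. vhl-1 ran closest to nol-58 (r = 0.977) and dkc-1 (r = 0.964), both genes of the machinery that modifies ribosomal RNA. cysl-2 ran closest to snx-1 (r = 0.973), R01H10.4 (0.966) and pcca-1 (0.962), cbs-2 to K06B4.15 (r = 0.976) and gskl-2 (0.964), and hif-1 to col-34 (r = 0.953) and hsp-110 (0.943). egl-9 ran closest to irg-7 (r = 0.947), cysl-1 to unc-18 (r = 0.95), cbs-1 to vang-1 (r = 0.912) and fmo-2 to acox-3 (r = 0.861), a gene of peroxisomal fatty acid breakdown. rhy-1 had the least alike neighbours, Y56A3A.33 (r = 0.835), F52D2.12 (0.745) and sqrd-1 (0.732), the last a sulphide oxidation gene of the list of genes known to depend on HIF-1. Among the members themselves, vhl-1 and hif-1 each ran with cysl-2 (r = 0.85 and 0.81), egl-9 ran with cysl-1 (r = 0.75), and cbs-1 ran against cbs-2 (r = -0.74) and fmo-2 (r = -0.66).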

How the data were processed

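The authors deposited 1 table of log2 expression values per probe set for the 26 arrays, which, per the submitters' processing notes, are RMA values (version not given in the sources used here). Arrays had a standard deviation of 2.41 to 2.45 on NG plates, 2.00 to 2.06 on RNAi plates and 2.27 to 2.32 on egg plates. Plate types thus appear normalised apart, and each mutant was compared with controls of its own plate type. Plate types were set side by side only in the difference of the dpy-27 and XO effects, in likeness by correlation and after joint quantile normalisation. Of the probe sets, 20810 name 1 gene, 843 several and 895 none; symbols came from the array annotation. limma version 3.58.1 in R version 4.3.3 was fitted to all probe sets and arrays with 1 mean per group, and again with 1 mean per group and date code for comparisons within or between dates. Benjamini-Hochberg adjustment ran over 22548 probe sets, two-sided, with calls at an adjusted p under 0.05 and no filter on low values. The members and all gene lists were chosen with earlier results of these data known. Named were every member, of the wider list the 8 called genes of largest change per comparison, and for likeness the 3 highest correlations; nhr-57 was named after its value was seen. Replicates are biological per the labels. Neighbouring genes came from the NCBI gene table. Array weights, other normalisations, date and replicate blocks and leaving out each array were alternatives.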

Additional observations from a re-analysis of the deposited data

Results flagged for a closer look

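Each of the following results was picked out because the dpy-27 effect and the XO effect differed by a test of the difference itself, as an interaction in the limma fit. The difference of the 2 log2 changes, dpy-27 minus XO, was -0.64 for hif-1, 0.82 for the brighter and 0.65 for the other cysl-1 probe set, 0.64 for cbs-1, -2.40 for cbs-2 and -1.5 for fmo-2. The change in dpy-27 and then in XO embryos was -0.98 and -0.34 for hif-1, 0.27 and -0.55 for the brighter cysl-1 probe set, 0.09 and -0.55 for the other, -0.03 and -0.67 for cbs-1, 0.20 and 2.60 for cbs-2 and -0.40 and 1.11 for fmo-2. Of 30 checks for an outlying array, made in XO embryos, their controls and the XO arrays of date code 5, none found one. Groups of 3 arrays were not checked.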

How the results depend on the processing

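hif-1 and cysl-2 in dpy-27 embryos, and cysl-2, cbs-1 and cbs-2 in XO embryos, kept their direction and call in every alternative that gave them a value. The members called in the dpy-27 comparison numbered 2, and 5 with the NG-plate arrays alone and 4 with the replicate block. With the replicate block the sdc-2 count was 7 and the XO count within date code 2 was 7, the same as without it. Deviations from group means of arrays with the same letter, A to C, correlated at -0.30 to 0.25. In the dpy-27 comparison 1 of 6 arrays ran closest to its own letter, in the sdc-2 comparison 4 of 6 and in the XO comparison 2 of 6. With groups of 3 arrays these values cannot settle whether the letters pair arrays. In the sdc-2 comparison 7 became 1 with date code as a random block (correlation 0.617) and 4 at an adjusted p under 0.01, and 4 to 6 when 1 array was left out, 4 being without sdc-2 replicate B or control replicate C. In the XO comparison 8 became 5 for XO date code 5 against control date code 4, and 8 to 9 when 1 array was left out. The difference of the dpy-27 and XO effects was called in 6 members, in 3 with the random block and in 4 to 6 when 1 array was left out. XO code 5 against code 2 had 5 calls, 8 with array weights and 4 to 6 when 1 array was left out.

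Signs turned as follows. In dpy-27 embryos re-centring on autosomal medians, which moved the median of all probe sets by 0.18, gave egl-9 0.0011 and cbs-1 0.15, and joint quantile normalisation gave cbs-1 0.01. In sdc-2 embryos the random block gave egl-9 -0.16, and re-centring moved that median by 0.11. In XO embryos rhy-1 was 0.26 within date code 2, with a fixed date block and with the replicate block, 0.56 for XO code 5 against control code 2, 0.28 with array weights and 0.14 with the random block. cysl-3 was 0.21 within code 2 and with both fixed blocks, and egl-9 was 0.24 for code 5 against code 4. The difference of effects was -0.33 for vhl-1 with XO at code 2, -0.06 with the random block, and 0.20 for cysl-2 with array weights. hif-1 between XO dates was 0.04 with array weights. Leaving out 1 array moved cbs-1 in dpy-27 embryos from -0.11 to 0.04, the dimmer cysl-1 probe set there from -0.01 to 0.18, hif-1 between XO dates from -0.16 to 0.05, rhy-1 in XO embryos from -0.32 to 0.07 and its difference of effects from -0.67 to 0.02.

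With the random block fmo-2 in XO embryos was 0.45 (adjusted p = 0.133) and lost its call. All probe sets called numbered 7150 for dpy-27, 4525 for sdc-2, 7007 for XO and 5100 for the difference. The random block gave 1671, 56, 7665 and 3343 for these 4. An adjusted p under 0.01 gave 2476 for sdc-2, 4598 for XO and 3104 for the difference. Array weights gave 7450 for sdc-2 and 10866 for XO, means per group and date 7362 for sdc-2, XO code 5 against control code 4 10812, and the difference with XO at code 2 9791. Without sdc-2 replicate B and without control replicate C the sdc-2 count was 2760 and 2952. The causes were not tested.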
